A study of Mus musculus with 12 samples.

Results

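The presynaptic active zone is the patch of axon terminal membrane where synaptic vesicles dock and release transmitter. The genes described here are 10 that encode its scaffold and priming proteins: Bsn, Pclo, Rims1, Rims2, Unc13a, Unc13b, Erc1, Erc2, Ppfia3 and Rimbp2. They were taken by name from the 49489 gene rows of the total RNA table, and all 10 had a row and were among the 20049 genes tested. The list was drawn up with earlier results of these data known. Primary hippocampal neurons from newborn mice were cultured to day 16 in vitro and RNA from a pulldown aimed at Gas5, a long noncoding RNA, was sequenced. Of the 12 libraries of the series, the 6 total RNA libraries are used, 3 titled antisense and 3 titled sense. The labels name no strain, probe sequence or treatment, nor do they say which of antisense and sense was meant to capture Gas5. Nothing in the labels says that the 3 libraries of a group are separate cultures, so p-values may measure technical spread only.

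At the active zone, the giant proteins Bassoon (Bsn) and Piccolo (Pclo) hold the meshwork of the release site together. RIM proteins (Rims1, Rims2) bind the vesicle GTPase Rab3, recruit calcium channels with the help of RIM-binding proteins (Rimbp2), and activate Munc13 proteins (Unc13a, Unc13b), which prime vesicles for fusion. ELKS proteins (Erc1, Erc2) and liprin-alpha proteins (Ppfia3) bind RIMs and each other, and liprin-alpha ties the assembly to receptor tyrosine phosphatases in the membrane.

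Libraries held 5775052 to 6293093 estimated counts in antisense and 6478779 to 10424167 in sense. Gas5, the target, took 9.71% to 14.2% of the counts in antisense and 32.7% to 57.1% in sense. Because of that difference, levels are given as counts-per-million (CPM) values after trimmed mean (TMM) scaling, which puts the median log2 fold change of all tested genes at -0.01. Scaling by plain library totals, Gas5 included, moves that median to 0.69 and with it every gene described here, while library totals without Gas5 called the same 3 of the 10 genes lower as TMM did. All 11 neuron markers were tested, with summed levels of 807 to 996 CPM in antisense and 993 to 1223 CPM in sense. The cultures also held glial RNA: the 6 astrocyte markers were all tested and summed to 938 to 1167 CPM in antisense and 1057 to 1379.7 CPM in sense. The 6 oligodendrocyte lineage markers, all tested, summed to 259 to 307 CPM in antisense and 306 to 403 CPM in sense. The 6 microglia markers, of which 3 were tested, summed to 17.6 to 21.4 CPM in antisense and 9.08 to 12.02 CPM in sense. The 6 endothelial and fibroblast markers, of which 5 were tested, summed to 60.4 to 63.7 CPM in antisense and 64.0 to 83.0 CPM in sense, and the endothelial gene Cldn5 was at 0 in all but antisense replicate 3. The part of cell makeup in the results below was not tested.

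On the TMM scale 3 of the 10 active zone genes, Bsn, Pclo and Ppfia3, were lower in the antisense libraries, none was higher and 7 did not pass, and on library totals all 10 log2 fold changes turned positive. The test was edgeR's quasi-likelihood F test with Benjamini-Hochberg adjustment over all genes, at a false discovery rate of 0.05. Over all genes tested, 4.35% were lower and 18.2% higher, or 22.6% in either direction. Among the 14788 tested genes that RefSeq classes as protein-coding, 4.8% were lower and 9.37% higher. Because the 10 genes were chosen with earlier results of these data known, the shares and medians beside them give no test of the set. On the TMM scale no member was higher at an unadjusted p under 0.05 in edgeR. None was called higher by DESeq2 with its own size factors or by limma-voom, while edgeR on library totals called 4 members higher. On the TMM scale all 10 log2 fold changes were negative, with a median of -0.21, against medians of -0.01 over all genes tested and -0.07 over protein-coding genes. Most marker lists had medians of like size. These were -0.24 for neurons with 10 of 11 negative and -0.23 for astrocytes with 6 of 6. The oligodendrocyte lineage was at -0.23 with 5 of 6 negative, and endothelium and fibroblasts at -0.25 with 4 of 5. The microglia list went the other way, with a median of 0.64 and all 3 tested markers positive, but only P2ry12 passed. P2ry12 had 33, 28 and 30 counts in antisense and 0, 0 and 2 in sense, so it passed the count filter through its antisense libraries alone. Cx3cr1 (edgeR adjusted p = 0.338) and Csf1r (edgeR adjusted p = 0.223) did not pass, and their groups overlapped. Negative values made up 51.6% of all tested genes and 61.3% of the protein-coding ones. In such bulk libraries, fewer cells of a type and less RNA per cell cannot be told apart, nor can either be told apart from recovery in the pulldown.

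**Figure D1:**
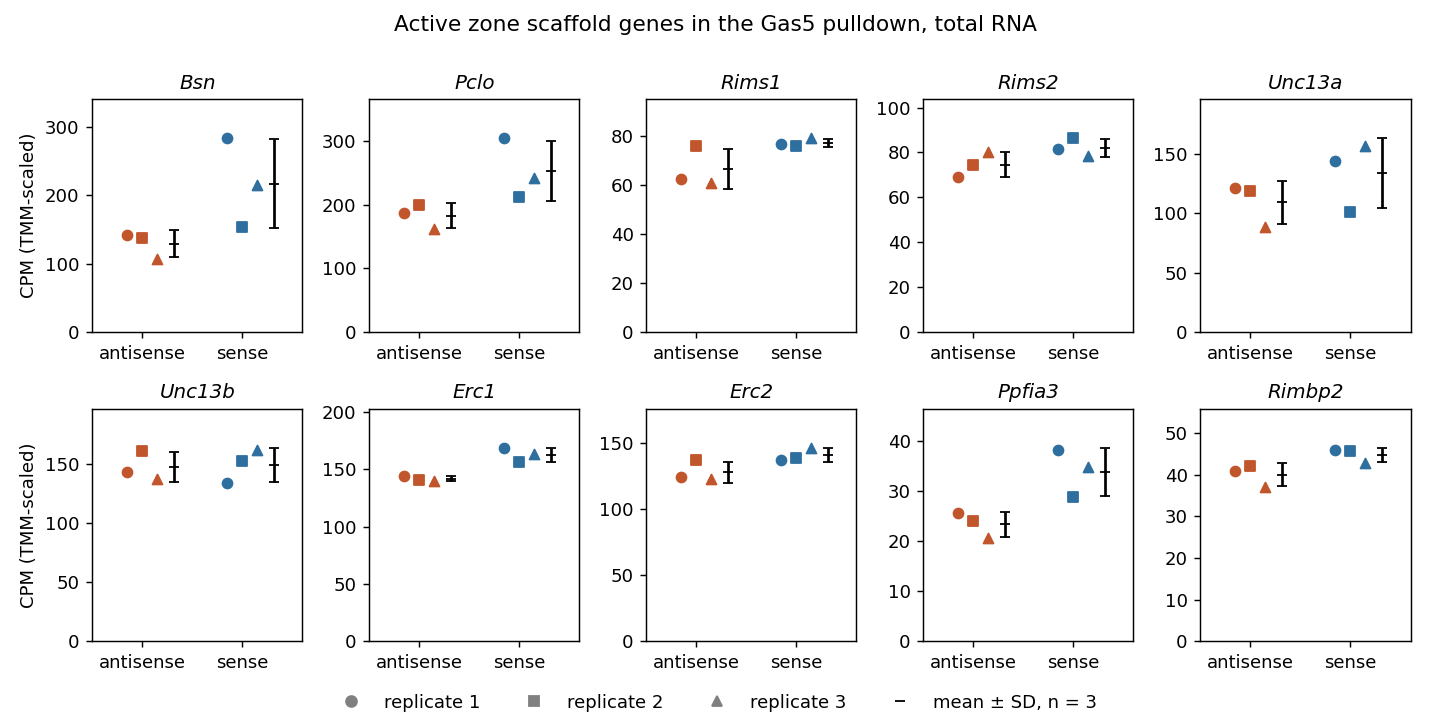
TMM-scaled level (CPM, vertical axis from 0) of each of the 10 genes in the 3 antisense and 3 sense libraries, with symbols for the replicate number and black bars for the mean ± SD (n = 3). For Bsn, Pclo, Ppfia3, Erc1 and Rimbp2 the antisense points all lie below the sense points on this scale; on library totals the direction of all 10 genes turns.

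Bsn had 143, 138 and 107 CPM in the antisense libraries, against 284, 153 and 215 CPM in the sense libraries. All antisense values lay below all sense values, but the highest antisense and the lowest sense library were close, and sense replicate 1 stood well above the other two. The means were 129 ± 19.4 CPM in antisense, against 217 ± 65.3 CPM in sense (SD, n = 3 each). Its log2 fold change was -0.75 (edgeR adjusted p = 0.00449, SE 0.173), which is 59.5% of the sense level and the largest shift of the 10 genes on the TMM scale. DESeq2 gave the same fold change with a larger SE of 0.280 and a call nearer the threshold (DESeq2 adjusted p = 0.03996). Bsn passed whichever library was left out, with log2 fold changes of -0.95 to -0.52.

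Pclo, which encodes the scaffold most closely related to Bassoon, had 188, 200 and 161 CPM in antisense, against 304, 212 and 241 CPM in sense. The groups did not overlap, and again sense replicate 1 was the highest library. The log2 fold change was -0.47 (edgeR adjusted p = 0.0133, SE 0.126), or 72.4% of the sense level. Without sense replicate 1 it was -0.32 and no longer passed (edgeR adjusted p = 0.0844).

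Ppfia3, which encodes liprin-alpha-3, was counted in far fewer reads, 153 to 194 per antisense library and 184 to 241 per sense library. Its level was 25.5, 23.9 and 20.5 CPM in antisense, against 38.1, 28.7 and 34.8 CPM in sense, with no overlap. The log2 fold change was -0.54 (edgeR adjusted p = 0.00766, SE 0.134), or 68.9% of the sense level. It passed whichever library was left out, at -0.65 to -0.46.

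The 3 genes that passed shared the order of the sense libraries, with replicate 1 highest, replicate 3 next and replicate 2 lowest. Erc1 had the same order, and the other 6 genes did not. The share of Gas5 followed it too, at 57.1%, 46.1% and 32.7% in sense replicates 1, 3 and 2, and replicate 1 was also the deepest library with 10424167 counts. The part of depth and Gas5 share in these levels was not tested. The highest sense level was 1.85 times the lowest for Bsn, 1.56 times for Unc13a, which did not pass, 1.44 times for Pclo and 1.33 times for Ppfia3, and it was 1.04 to 1.21 times for the other 6 genes. In antisense, replicate 3 had the lowest level of 9 of the 10 genes, Rims2 being the exception, and it also had the lowest sum of neuron markers, 807 CPM.

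The start sites of the 3 genes that passed on the TMM scale are shown. Levels in pulldown libraries do not measure transcription, and any part of these sequences in the differences was not tested. Each sequence covers 250 bases before to 50 bases after an annotated RefSeq start in assembly GRCm38.p6, written 5′ to 3′ on the gene's strand. Capitals mark matches on either strand to 4 motifs: the consensus site of the factor NRF1, the GC box GGGCGG, the cyclic AMP response element TGACGTCA and the TATA box TATAAA. Bsn lies at chr9:108190334-108190633 on the minus strand, Pclo at chr5:14514668-14514967 on the plus strand and Ppfia3 at chr7:45366970-45367269 on the minus strand.
Bsn: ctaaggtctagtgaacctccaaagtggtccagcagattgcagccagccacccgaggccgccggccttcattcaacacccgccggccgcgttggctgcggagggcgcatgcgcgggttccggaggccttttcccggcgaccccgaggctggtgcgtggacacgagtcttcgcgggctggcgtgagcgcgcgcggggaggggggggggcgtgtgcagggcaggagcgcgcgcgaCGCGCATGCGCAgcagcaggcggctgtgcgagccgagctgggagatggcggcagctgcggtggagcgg
Pclo: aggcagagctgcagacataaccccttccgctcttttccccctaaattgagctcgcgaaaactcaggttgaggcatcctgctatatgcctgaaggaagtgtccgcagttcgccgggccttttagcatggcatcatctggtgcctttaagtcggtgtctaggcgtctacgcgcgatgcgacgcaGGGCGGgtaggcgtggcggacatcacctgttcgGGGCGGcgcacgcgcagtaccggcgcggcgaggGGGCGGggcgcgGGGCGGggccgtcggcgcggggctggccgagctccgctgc
Ppfia3: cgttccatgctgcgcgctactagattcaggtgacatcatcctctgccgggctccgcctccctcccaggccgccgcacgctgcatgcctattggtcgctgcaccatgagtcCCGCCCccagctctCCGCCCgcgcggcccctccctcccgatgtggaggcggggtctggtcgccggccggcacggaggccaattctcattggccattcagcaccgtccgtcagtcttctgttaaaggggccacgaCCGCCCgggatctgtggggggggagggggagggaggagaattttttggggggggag
The Bsn window held 1 NRF1 site, which reads on both strands, and no GC box, the Pclo window 4 GC boxes and the Ppfia3 window 3 GC boxes. The 3 genes therefore had no motif of the 4 in common. A RefSeq window was given for 9 of the 10 genes, Rims2 having none in the table used. Of these 9 windows, 7 held a GC box, against 35.7% of 32851 windows of all genes, and only that of Bsn held the NRF1 site, against 1.27%. The 32851 windows (27025 genes) were not restricted to protein-coding genes, while all 10 members are protein-coding. The comparisons of motifs and base content here are therefore not made within one class of gene. A shorter and looser NRF1 form, with any base at one central position, was tried as well and matched Bsn and Pclo and 4.6% of all windows. No window held the cyclic AMP response element (1.79% of all windows) or the TATA box (13.6%). The windows were rich in G and C, with a median of 67.3% (range 61.3% to 77.0%), against a median of 52.7% over all windows. The CpG dinucleotide was at 0.772 of its expected frequency at the median, against 0.384 over all windows, and Rimbp2 stood lowest at 0.238. The motifs were chosen with the sequences in view, and a match describes the letters only.

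**Figure D2:**
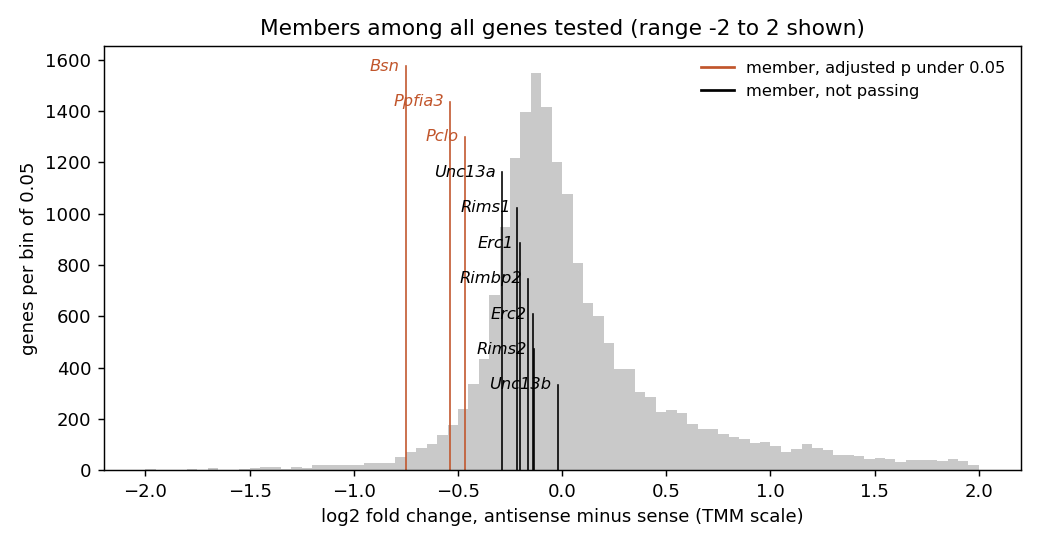
Histogram of the log2 fold change (antisense minus sense, TMM scale) of tested genes between -2 and 2 in bins of 0.05, with vertical lines for the 10 active zone genes, orange where the edgeR adjusted p was under 0.05 and black otherwise. Line height carries no value; 27 genes below -2 and 1779 above 2 lie outside the plot. All 10 lines lie below 0 on this scale and above 0 on library totals.

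The RIM and RIM-binding protein genes did not pass. Rims1 had 62.6, 76.0 and 61.0 CPM in antisense, against 76.7, 75.9 and 79.1 CPM in sense. Antisense replicate 2 lay among the sense libraries and the other antisense libraries below them, giving a log2 fold change of -0.21 (edgeR adjusted p = 0.159, SE 0.102). Without antisense replicate 2 it was -0.33 and passed (edgeR adjusted p = 0.0292). Rims2 had 69.2, 74.2 and 80.4 CPM in antisense, against 81.4, 86.3 and 78.3 CPM in sense, and the groups overlapped. Its log2 fold change was -0.14 (edgeR adjusted p = 0.343, SE 0.0938). Rimbp2, which links RIMs to calcium channels, had 40.9, 42.3 and 37.0 CPM in antisense, against 46.0, 45.7 and 42.8 CPM in sense. These groups did not overlap, though the nearest libraries were 42.3 and 42.8 CPM, and the log2 fold change of -0.16 did not pass (edgeR adjusted p = 0.289, SE 0.101).

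Neither Munc13 gene passed. Unc13a, which encodes the main priming factor of many excitatory synapses, had 121, 118 and 88.3 CPM in antisense, against 143, 100.5 and 157 CPM in sense. Sense replicate 2 fell inside the antisense range, and the log2 fold change of -0.29 did not pass (edgeR adjusted p = 0.203, SE 0.151). Without sense replicate 2 it was -0.46 and passed (edgeR adjusted p = 0.0233). Unc13b had 144, 161 and 137 CPM in antisense, against 134, 153 and 162 CPM in sense. The groups covered the same range, with a log2 fold change of -0.021 (edgeR adjusted p = 0.914, SE 0.1005), the smallest of the 10.

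Neither ELKS gene passed. Erc1 had 144, 141 and 140.1 CPM in antisense, against 169, 156 and 164 CPM in sense. The groups were apart, yet the log2 fold change of -0.20 did not pass (edgeR adjusted p = 0.112, SE 0.0846). Its unadjusted p was 0.0323, the only one under 0.05 among the 7 genes that did not pass. Erc2 had 125, 137 and 123 CPM in antisense, against 137.2, 139 and 147 CPM in sense, with groups that overlapped narrowly and a log2 fold change of -0.14 (edgeR adjusted p = 0.307, SE 0.0886). Counting the members by libraries alone, 5 of the 10 genes had all antisense values below all sense values and none had them all above. Over all genes tested, 13.2% had all antisense values below and 23.4% all above.

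Summed over the 10 genes, levels were 1061, 1112 and 955 CPM in the antisense libraries, against 1413, 1150.05 and 1321 CPM in the sense libraries. Divided by the summed neuron markers of the same library, the sums were 1.11, 1.12 and 1.18 in antisense, against 1.16, 1.16 and 1.21 in sense, so these ratios overlapped between the groups. Most of the marker sum came from Map2, with 647 of 959 CPM in antisense replicate 1 and 840 of 1223 CPM in sense replicate 1. Scaling by that sum therefore rests largely on 1 gene, whose own log2 fold change was -0.28 on the TMM scale. With the summed neuron markers as library size, Bsn still passed at -0.47 (edgeR adjusted p = 0.0249, SE 0.148). Ppfia3 was at -0.27 (edgeR adjusted p = 0.276) and Pclo at -0.20 (edgeR adjusted p = 0.332) and neither passed. On that scale 6 of the 10 log2 fold changes were positive, Unc13b being highest at 0.23 (edgeR adjusted p = 0.328, SE 0.145), and the median of the 10 was 0.051 against 0.25 over all genes tested.

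**Figure D3:**
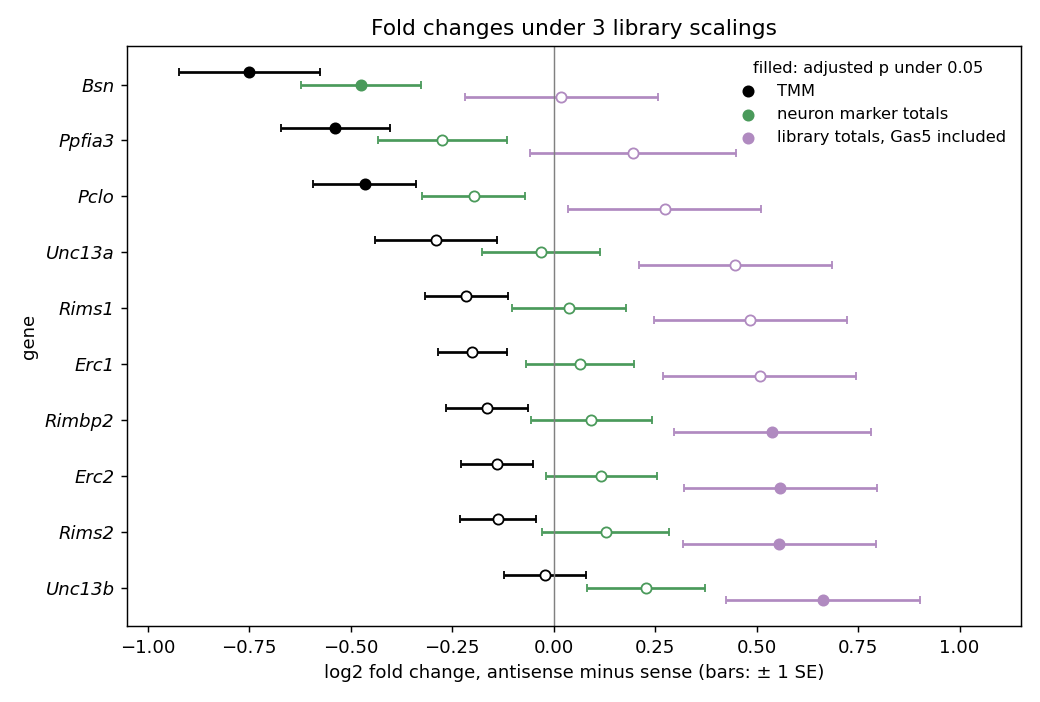
Log2 fold change (antisense minus sense, horizontal axis, bars ± 1 SE) of each gene under TMM, under summed neuron markers as library size and under plain library totals including Gas5. Filled points have an edgeR adjusted p under 0.05: Bsn, Ppfia3 and Pclo under TMM, Bsn under neuron marker totals, and Rimbp2, Erc2, Rims2 and Unc13b, in the positive direction, under library totals.

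Ratios between related genes within a library do not depend on any scaling, so 4 such pairs were compared between the groups with a two-sided exact permutation test. With 3 libraries a group, p cannot go below 0.1. The ratio of Bsn to Pclo counts was 0.760, 0.693 and 0.664 in antisense, against 0.933, 0.725 and 0.891 in sense. Antisense replicate 1 overlapped the sense range, and the difference was -0.26 on the log2 scale (exact p = 0.2, adjusted over the 4 pairs 0.6). The SD of the log2 ratios was 0.0990 in antisense and 0.194 in sense. Unc13a to Unc13b was 0.843, 0.732 and 0.645 in antisense, against 1.07, 0.659 and 0.966 in sense, a log2 difference of -0.26 (exact p = 0.3, adjusted 0.6). Rims1 to Rims2 was 0.905, 1.02 and 0.758 in antisense, against 0.942, 0.879 and 1.01 in sense (log2 difference -0.084, exact p = 0.7, adjusted 0.7). Erc1 to Erc2 was 1.16, 1.03 and 1.14 in antisense, against 1.23, 1.12 and 1.11 in sense (log2 difference -0.060, exact p = 0.6, adjusted 0.7). All 4 pairs of groups overlapped, and the ratios compare libraries, not the abundance of one gene with another, since counts were not divided by transcript length.

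**Figure D4:**
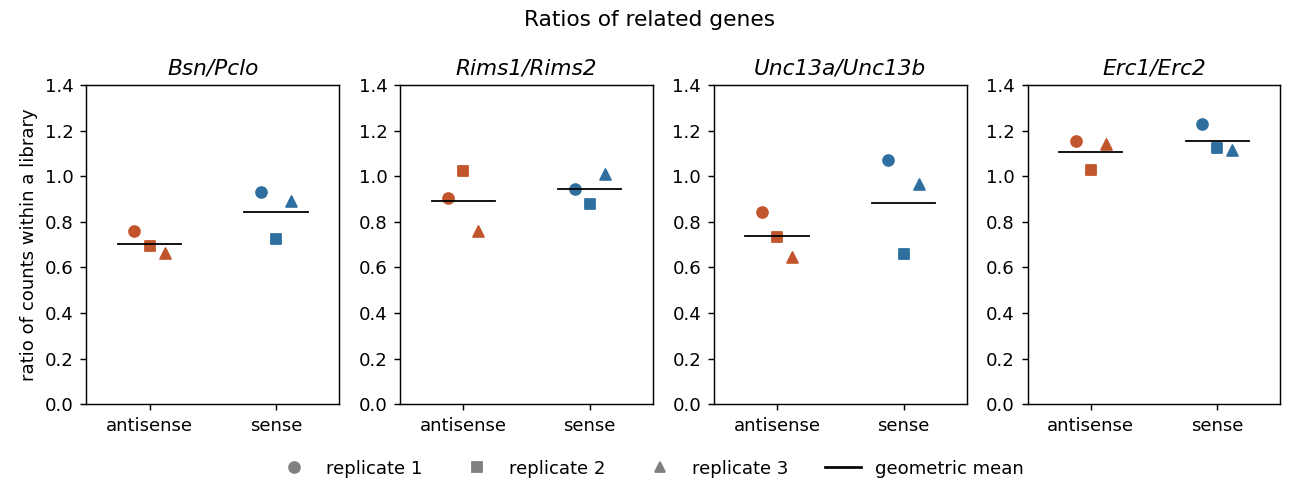
Ratio of estimated counts of 2 related genes within each library (vertical axis from 0), for 4 pairs, in the 3 antisense and 3 sense libraries, with a line at the geometric mean. The groups overlap in every panel, and sense replicate 1 has the highest ratio of the 6 libraries for Bsn/Pclo, Unc13a/Unc13b and Erc1/Erc2.

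On the TMM scale none of the 9 further genes of these families passed in either direction (Rims3, Rims4, Unc13c, Unc13d, Ppfia1, Ppfia2, Ppfia4, Tspoap1 and Rimbp3). Library totals called 4 of the 9 higher. Over all genes tested on the TMM scale 4.35% were lower and 18.2% higher. This list too was chosen with earlier results of these data known. At an unadjusted p under 0.05 in edgeR on the TMM scale 1 of the 9 was lower and none higher, and DESeq2 and limma-voom called none of the 9. Their log2 fold changes on the TMM scale ran from -0.31 to 0.35 with a median of -0.079. Tspoap1, which encodes RIM-binding protein 1, had 97.7, 95.7 and 82.3 CPM in antisense, against 109, 95.05 and 128 CPM in sense (log2 fold change -0.27, edgeR adjusted p = 0.112). Without sense replicate 2 it passed at -0.37 (edgeR adjusted p = 0.0334). Ppfia2, a liprin-alpha gene of the same family as Ppfia3, had 88.9, 108 and 82.1 CPM in antisense, against 97.2, 91.6 and 86.8 CPM in sense. Its log2 fold change was 0.018 (edgeR adjusted p = 0.932, SE 0.108), and whether it differs from Ppfia3 was not tested.

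Of 20 genes for proteins that bind these scaffolds at the active zone, 3 were lower in antisense on the TMM scale and 17 did not pass. Over all genes tested 4.35% were lower and 18.2% higher, and among protein-coding ones 4.8% and 9.37%. The list was chosen with earlier results of these data known, so these shares give no test of it. The median of the 20 genes was -0.20 on the log2 scale, close to those of most marker lists (-0.23 to -0.25). No partner was higher after adjustment, at an unadjusted p under 0.05 in edgeR, nor by DESeq2 or limma-voom, while library totals gave 10 higher and 0 lower. A pair of those that passed encode receptor phosphatases of the LAR type, which bind liprin-alpha. Ptprs had 393, 351 and 361 CPM in antisense, against 471, 412 and 486 CPM in sense (log2 fold change -0.31, SE 0.0946, edgeR adjusted p = 0.0276). Ptprf had 144, 119.6 and 137 CPM in antisense, against 186, 148 and 165 CPM in sense (log2 fold change -0.32, SE 0.106, edgeR adjusted p = 0.0443). Their relative Ptprd did not pass, with 195, 212 and 194 CPM in antisense, against 228, 211 and 222 CPM in sense (log2 fold change -0.14, edgeR adjusted p = 0.299). The third, Cacna1b, encodes the pore of the N-type calcium channel and had 88.9, 92.8 and 84.7 CPM in antisense, against 104.8, 104.6 and 113 CPM in sense (log2 fold change -0.28, SE 0.0886, edgeR adjusted p = 0.0359). DESeq2 called Ptprs and Ptprf lower but not Cacna1b (DESeq2 adjusted p = 0.0577). These calls lay near the threshold: none of the 20 passed without antisense replicate 3, without sense replicate 1 or without sense replicate 3, and Cacna1b alone passed without antisense replicate 2. With 1 library left out the log2 fold changes lay between -0.38 and -0.27 for Ptprs, -0.40 and -0.25 for Ptprf and -0.32 and -0.24 for Cacna1b.

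Other rows of the table lie within or across the spans of the active zone genes. On RefSeq spans 11 rows overlapped a member, of which 5 were tested, under 4 of the members. Of these, 2 were higher in antisense, both noncoding, and 3 did not pass. Over all genes tested 18.2% were higher and over protein-coding ones 9.37%, so higher calls were more frequent among the remaining genes. With 5 rows tested, no difference from those shares can be read. Bsn spans chromosome 9 from 108096022 to 108190419, and within it the noncoding gene 4930447F24Rik (108133718 to 108138567) had 27, 24 and 25 counts in antisense and 0 in every sense library. On the TMM scale, against a floor of 3 counts over the sense group, it was at least 20.6-fold higher (edgeR adjusted p = 1.2e-05), and Bsn itself was lower. Erc2 spans chromosome 14 from 27622275 to 28478537. Inside it the noncoding gene Gm45645 (27828152 to 27840979) had 41, 54 and 46 counts in antisense and 2, 0 and 2 in sense. On the TMM scale the antisense sum was 28.7 times that of sense (95% interval by the exact method, 10.9 to 106.6, counting error only, edgeR adjusted p = 4.3e-06). Both noncoding genes passed the count filter through their antisense libraries alone, so their p-values describe rows kept because they were high there. Neither was tested at a minimum count of 50. The pseudogene Gm18398, also inside Erc2, had 5.13, 4.49 and 6.43 CPM in antisense, against 6.80, 5.45 and 6.68 CPM in sense and did not pass (log2 fold change -0.24, edgeR adjusted p = 0.532). Colgalt1, whose end overlaps Unc13a, was at -0.25 (edgeR adjusted p = 0.278) and Fam214b, whose end overlaps Unc13b, at -0.13 (edgeR adjusted p = 0.534). Whether reads were counted by strand is not stated in the labels, so reads of overlapping genes may not be told apart.

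The authors' deposited table, which runs sense over antisense, gives positive log2 fold changes for all 10 genes. In the authors' deposited table the adjusted p was 0.0475 for Bsn (log2 fold change 0.75), 0.00311 for Pclo (0.47) and 0.0210 for Ppfia3 (0.54), and it was 0.111 or higher for the other 7.

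Among 10 CPM or more on average, genes whose centred log2 levels over the 6 libraries lay close to the mean profile of the 10 active zone genes were Ltn1, Dock11, Vps13c and Cep192. Their root mean square differences from that profile were 0.0099, 0.017, 0.021 and 0.022 on the log2 scale. The profile itself stood at -0.11, -0.052 and -0.26 in antisense replicates 1, 2 and 3, against 0.23, 0.015 and 0.18 in sense replicates 1, 2 and 3. Ltn1, which encodes a ubiquitin ligase of ribosome quality control, had 72.4, 76.3 and 65.5 CPM in antisense, against 93.3, 80.6 and 88.5 CPM in sense. The order of its 6 libraries was that of the mean profile, and Dock11, Vps13c and Cep192 had the same order. These genes were picked from 10991 for closeness to that profile, so the shared order follows from the choice.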

How the data were processed

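Total RNA from the pulldown was read from the authors' deposited table of estimated counts per gene symbol and library. The submitters' processing notes list Salmon, DESeq and GRCm38 with no versions; no kit, strand setting or index is stated there. The authors' deposited comparison table gives a mean normalised signal, log2 fold changes and p-values, and was only set beside the results. The small RNA tables were not used. Unused sample columns numbered 0.

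Estimated counts were rounded, kept by filterByExpr (minimum count 10), scaled by TMM and tested with edgeR 4.0.16 in R 4.3.3 over all genes, antisense minus sense, with no covariate. SE is the size of the log2 fold change over the square root of F. DESeq2 1.42.0, limma 3.58.1 (voom), other scalings, filters, a replicate block and leaving out each library were alternatives. Profiles used log2(CPM + 0.5). On simulated counts for 19405 genes, 27 of 67 changes of 1.5-fold (40.3%), 47 of 67 of 2-fold (70.1%) and 65 of 66 of 4-fold (98.5%) were recovered, with 3 false calls. Named were all members, up to 5 passing and the 2 most abundant genes of each list, up to 3 tested rows overlapping a member and the 5 closest profiles, of which 1 is not reported here. Members and lists were chosen with earlier results of these data known, and Unc13d was named after its values were seen.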

Additional observations from a re-analysis of the deposited data

How the results depend on the processing

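Of 150 values of the 10 genes under the alternatives, 138 kept their direction or stayed uncalled on the same side of the threshold. Library totals, Gas5 included, turned all 10 genes, Bsn (0.019), Pclo (0.27), Ppfia3 (0.20), Rims1 (0.48), Rims2 (0.56), Unc13a (0.45), Unc13b (0.66), Erc1 (0.51), Erc2 (0.56) and Rimbp2 (0.54), and gave 0 lower and 4 higher members, 4 higher genes of the related families and 0 lower and 10 higher partners. On those totals Ptprs (0.41), Cacna1b (0.42), Ptprf (0.41), Ptprd (0.57), Ltn1 (0.42) and Cep192 (0.40) were reversed too, and the median of all genes was 0.69. Neuron marker totals left 1 lower member and 0 lower partners. Partners lower numbered 1 with upper-quartile factors and 0 at a minimum count of 50, where the log2 fold changes of Ptprs (-0.29 and -0.27), Ptprf (-0.29 and -0.28) and Cacna1b (-0.25 and -0.24) were close to those reported. Leaving out 1 library gave 2 to 4 lower and 0 higher members, 0 to 2 lower partners, 0 to 1 lower (Tspoap1) and 0 to 1 higher (Unc13d) genes of the related families, and log2 differences of -0.19 to 0.031 for Rims1/Rims2, -0.47 (without sense replicate 2) to -0.12 (without sense replicate 1) for Unc13a/Unc13b, -0.091 to -0.0059 (without antisense replicate 2) for Erc1/Erc2 and -0.37 to -0.19 for Bsn/Pclo. The cause was not tested. The alternatives for the partners, related families and named genes outside the 10 were added after seeing the data.

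Over all genes, 873 were lower and 3658 higher (80.7% of calls higher). This became 63 and 12581 on library totals (99.5% higher), 138 and 4328 on neuron marker totals (96.9%), and 402 and 1795 at a minimum count of 50. The lower genes numbered 492 without sense replicate 3, 571 without antisense replicate 1 and 534 without sense replicate 1.

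Libraries of the same number did not deviate together (r = 0.0617, -0.0753 and -0.00896 for replicates 1, 2 and 3 over 20049 genes), and not every library correlated best with its own number. With the replicate block 3 members were lower, as without it, and 2 partners, and the exact sign-flip p for Bsn/Pclo was 0.25, the smallest that 3 pairs allow. A 1.5-fold change was recovered in 40.3% of simulated cases over 19405 genes, and most members differed by less. That share was not worked out at the levels of the members, whose SEs ran from 0.0846 (Erc1) to 0.173 (Bsn). It therefore does not give the recovery to be had for the members.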
